A study of Mus musculus with 6 samples.

Results

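The S100 genes encode small calcium-binding proteins, and 8 of them were read in *Hoxa9*-driven murine acute myeloid leukemia (AML) with and without *IRX3*: *S100a1*, *S100a4*, *S100a6*, *S100a8*, *S100a9*, *S100a10*, *S100a11* and *S100a13*. They were taken from the table of 41128 genes by their symbols, and all 8 were found. RNA was sequenced from sorted bone marrow (BM) cells of 6 leukemic mice, with a library for each animal. The 3 *Hoxa9*/MTV mice are numbered 1.1, 1.2 and 1.4, and the 3 *Hoxa9*/*IRX3* mice 3.2, 3.3 and 3.5, and these numbers do not pair the cohorts. In both cohorts KIT+ BM cells of CD45.1+ female mice had been infected with a retrovirus for FLAG-tagged *Hoxa9*. The second retrovirus was the empty vector MTV in the control cohort and carried a MYC-tagged human *IRX3* cDNA in the other. Drug-selected cells were injected, with unfractionated CD45.2+ BM cells, into lethally irradiated female CD45.2+ recipients. Donors and recipients were 6 to 12 weeks old at transplantation. The study reports a later onset of AML in *Hoxa9*/*IRX3* recipients, so age at sampling may differ between the cohorts. The labels give the strain as C57BL/6, and by the methods the CD45.1+ mice were of the congenic strain B6.SJL-Ptprca Pepcb/BoyJ. Marrow of the sick animals was thawed, and viable CD45.1+ KIT+Gr1+ leukemia cells were sorted, so that more mature leukemia cells without KIT were not measured. Expression of both transgenes came from a retroviral promoter, and no cohort without *Hoxa9* was analysed here.

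S100 proteins form pairs, and in most of them EF-hand loops bind calcium, which opens a hydrophobic face that grips target proteins such as annexins. S100A8 and S100A9 form calprotectin, an abundant cytosolic complex of neutrophils and monocytes that withholds zinc and manganese from microbes and, once released, engages TLR4 and RAGE as an alarm signal. Their RNA accumulates as granulocytes and monocytes mature, and S100A4, S100A6, S100A10 and S100A11 are known for roles in cell motility, membrane traffic and growth in many tissues.

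Expression was read as RPKM, a normalized read density that corrects for gene length and library size and is not a count, and low values move in steps of 1 read, from which the reads behind each value were recovered. This gave between 7979243 reads in mouse 3.5 and 9803616 in mouse 3.3. Each change is the mean of *Hoxa9*/*IRX3* mice minus that of controls on log2(RPKM + 0.5), where the added 0.5 shrinks differences of low genes, and was tested with limma over 9522 protein-coding genes above 0.5 RPKM in at least 1 mouse. A called gene had to pass both limits, an adjusted p under 0.05 and a 2-fold or larger change. An exact permutation test of 3 mice against 3 cannot give a p below 0.1, the value reached by every gene whose cohorts do not overlap. In these bulk samples, fewer cells of a type and less RNA per cell cannot be told apart.

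All 8 genes lie on mouse chromosome 3, most of them in the S100 cluster. *S100a1* and *S100a13* stand head to head, 42 bases apart. *S100a4* and *S100a6* follow 6.8 kb from each other, then *S100a8* and *S100a9* at 22.6 kb, and from *S100a1* to *S100a9* the cluster spans 184.7 kb. *S100a11* and *S100a10* are 28.8 kb apart and lie 2.82 Mb farther along. The 250 bases before the RefSeq start (GRCm38.p6) are shown for the genes on which the results turn: the calprotectin pair, *S100a4*, *S100a6* and the most raised gene, *S100a11*. Capitals mark matches, on either strand, to 5 motifs: the TATA box TATAAA, C/EBP TTNCGNAA, AP-1 TGANTCA, the Iroquois motif ACANNTGT and PU.1 GAGGAAGT. The windows lie at chr3:90668821-90669070 (plus strand, *S100a8*), chr3:90695722-90695971 (minus strand, *S100a9*), chr3:90603520-90603769 (plus strand, *S100a4*), chr3:90612644-90612893 (plus strand, *S100a6*) and chr3:93520246-93520495 (plus strand, *S100a11*).
S100a8: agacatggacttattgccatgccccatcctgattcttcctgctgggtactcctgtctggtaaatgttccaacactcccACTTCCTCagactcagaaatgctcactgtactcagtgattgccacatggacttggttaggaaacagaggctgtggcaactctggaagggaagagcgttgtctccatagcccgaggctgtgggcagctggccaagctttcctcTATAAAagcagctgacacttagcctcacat
S100a9: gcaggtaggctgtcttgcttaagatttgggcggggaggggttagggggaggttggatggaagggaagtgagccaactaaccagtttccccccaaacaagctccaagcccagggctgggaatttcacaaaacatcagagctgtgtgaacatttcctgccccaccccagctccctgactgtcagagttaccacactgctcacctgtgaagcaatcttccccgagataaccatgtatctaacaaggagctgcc
S100a4: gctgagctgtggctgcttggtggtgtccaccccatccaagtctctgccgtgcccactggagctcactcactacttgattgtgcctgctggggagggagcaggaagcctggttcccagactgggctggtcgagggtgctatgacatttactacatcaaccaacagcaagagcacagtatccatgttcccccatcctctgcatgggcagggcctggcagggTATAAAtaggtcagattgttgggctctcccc
S100a6: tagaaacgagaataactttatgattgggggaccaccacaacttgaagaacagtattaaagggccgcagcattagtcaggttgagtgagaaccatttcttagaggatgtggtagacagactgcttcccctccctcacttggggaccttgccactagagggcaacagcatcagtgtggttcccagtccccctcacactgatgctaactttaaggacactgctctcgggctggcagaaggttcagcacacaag
S100a11: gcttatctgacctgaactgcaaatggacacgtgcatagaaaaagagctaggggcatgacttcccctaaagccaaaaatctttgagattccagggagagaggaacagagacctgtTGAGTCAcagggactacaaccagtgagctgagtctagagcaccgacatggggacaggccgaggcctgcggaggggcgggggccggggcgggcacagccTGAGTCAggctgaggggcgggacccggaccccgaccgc

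The search covered 250 bases before to 50 bases after each start, over 19048 RefSeq promoters of protein-coding genes in the table, of which 7 belonged to the genes described; *S100a10* has no entry. TATAAA was present in 11.96% of all promoters and in those of *S100a4*, *S100a8* and *S100a9*. It began 31 bases before the start of *S100a4* and 30 bases before that of *S100a8*, and in *S100a9* it began at the RefSeq start itself, just after the last base shown. The PU.1 letters were held by 3.11% of promoters, and the reverse-strand form ACTTCCTC began 172 bases before *S100a8* and 18 bases into *S100a4*. AP-1 letters were in 6.94% of promoters and occurred in *S100a11* as TGAGTCA at 136 and 38 bases before the start. The Iroquois motif, in 5.86% of promoters, occurred in *S100a9* as ACATCTGT from base 32 after the start, and C/EBP letters, in 2.92%, were in none of the 7 windows. The *S100a11* window held 11 CG dinucleotides in its 250 bases and the other 4 shown 2 or 3, against a median of 10 over all promoters. A match describes the letters only, and nothing about binding was measured.

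Of the 8 genes, 1 passed both limits, *S100a10*, which fell, against 3.13% of all tested genes (2.03% lower and 1.10% higher). The cohorts did not overlap for 4 genes, against 33.7% of all tested genes. *S100a4* and *S100a10* were lower in all *Hoxa9*/*IRX3* mice, as were 21.6% of tested genes, and *S100a1* and *S100a11* were higher in all of them, as were 12.2%. The criterion of the study, an unadjusted p under 0.05 on RPKM with a ratio of means over 2, was met by *S100a4*, *S100a10* and *S100a11*, against 6.97% of tested genes. The median change of the 8 genes was 0.32 and that of all tested genes -0.06. The changes thus ran in both directions: the annexin A2 partner *S100a10* and *S100a4* were at the low end, *S100a11* at the high end, and the calprotectin genes in between with wide intervals.

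**Figure D1:**
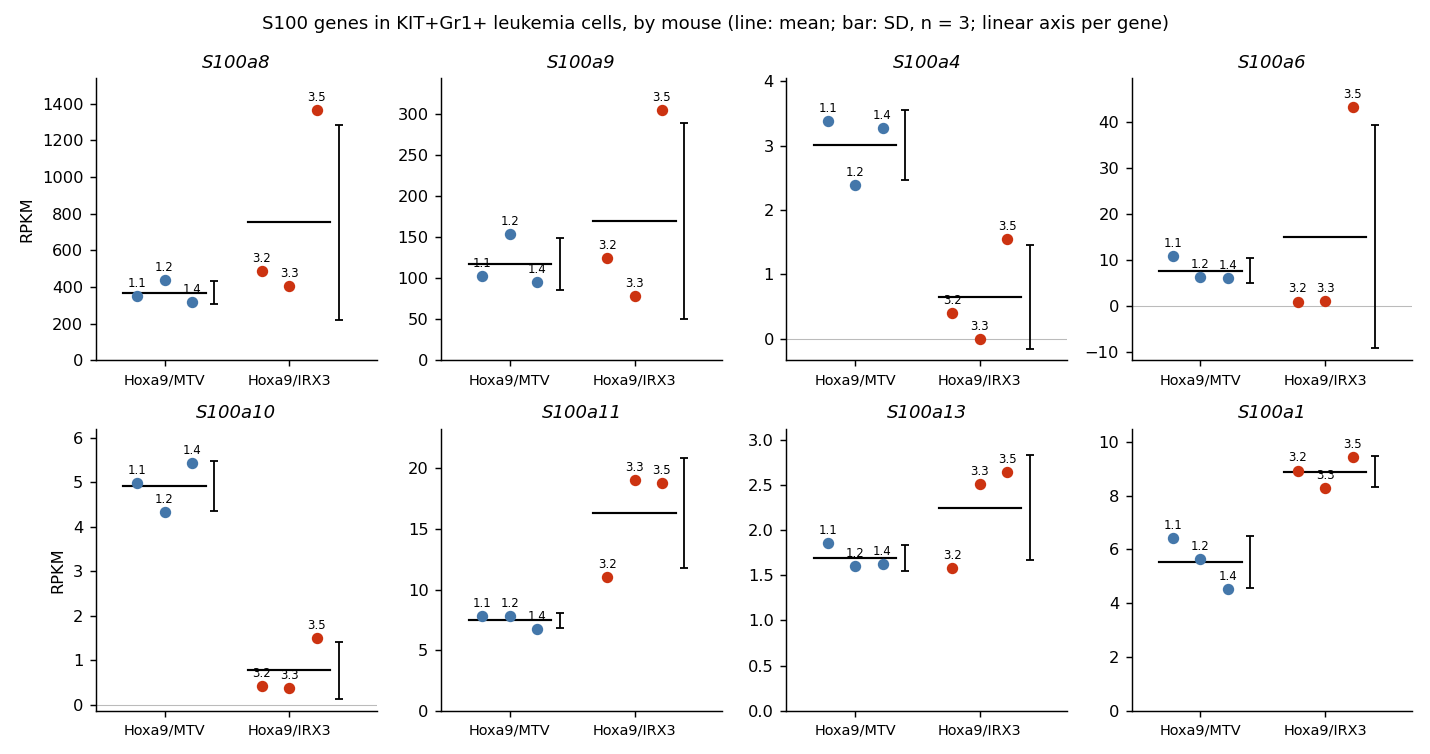
RPKM of the 8 S100 genes in each mouse (y axis, linear, scaled per gene; blue, *Hoxa9*/MTV; red, *Hoxa9*/*IRX3*; line, mean; side bar, SD, n = 3). For *S100a10* and *S100a4* every red point lies below every blue point, for *S100a11* and *S100a1* above, and mouse 3.5 is the highest of 6 for *S100a8*, *S100a9*, *S100a6*, *S100a13* and *S100a1*.

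The calprotectin pair came first in level. *S100a8* (ENSMUSG00000056054; chromosome 3, 90668978 to 90670035) was at 353, 438 and 320 RPKM in mice 1.1, 1.2 and 1.4, against 489, 406 and 1367 RPKM in mice 3.2, 3.3 and 3.5 (2987 to 10518 reads). The cohorts overlapped, since mouse 3.3 lay below mouse 1.2, and mouse 3.5 stood 3.06-fold above the mean of the other *Hoxa9*/*IRX3* mice. The means were 370 ± 60.6 and 754 ± 533 RPKM (SD, n = 3), and limma gave a log2 fold change of 0.82 (95% interval -0.26 to 1.90, adjusted p = 0.311), so that neither no change nor a rise of more than 2-fold lay outside the interval. Without mouse 3.5 the change was 0.28 (adjusted p = 0.411).

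*S100a9* (ENSMUSG00000056071; chromosome 3, 90692632 to 90695721), which encodes the larger calprotectin subunit, was at 103, 154 and 95.02 RPKM in *Hoxa9*/MTV mice, against 125, 79.0 and 305 RPKM in mice 3.2, 3.3 and 3.5. Here too the highest value was that of mouse 3.5 and the lowest of the 6 that of its cohort mate 3.3. The log2 fold change was 0.33 (95% interval -0.84 to 1.50, adjusted p = 0.709 by limma), and it turned to -0.21 without mouse 3.5 (adjusted p = 0.710). Over the 6 mice both genes had a Pearson r of 0.92 on log2(RPKM + 0.5). These values hold mouse 3.5, the highest for both genes, and no r was computed without it. Mouse 3.3, the lowest for *S100a9*, lay above mice 1.1 and 1.4 for *S100a8*. The proportion of the 2 genes was less even: *S100a8* had 0.886 to 1.07 times the reads of *S100a9* in *Hoxa9*/MTV mice and 1.22, 1.60 and 1.40 times in mice 3.2, 3.3 and 3.5. The ranges of this ratio did not overlap, a comparison made after the values were seen and not tested.

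Neutrophil markers are given beside these genes. Of 17 tested, 4 rose (*Elane*, *Cd177*, *Retnlg* and *Ly6g*) and 0 fell, beside 1.10% higher and 2.03% lower among all tested genes, and their summed RPKM was 2745 to 4059 in *Hoxa9*/MTV and 5952 to 6911 in *Hoxa9*/*IRX3* mice. *Elane* alone made up 3324, 3332 and 2237 RPKM of the sum in mice 3.2, 3.3 and 3.5. Mouse 3.5, the highest for *S100a8* and *S100a9*, had the lowest sum of its cohort, 5952, but the highest value of the 6 mice for *Ngp* (1480 RPKM), *Cd177* (49.5), *Cxcr2* (10.2), *Retnlg* (8.75) and *Itgam* (5.34). It was the lowest of the 6 mice for *Mmp8* (0.150 RPKM) and the lowest of its cohort for *Elane*, *Prtn3*, *Ctsg*, *Csf3r* and *Mmp9*. For the rest of the list it lay between its cohort mates. The part of these markers in the calprotectin values was not tested. The secondary granule genes *Ngp*, *Camp*, *Ltf*, *Mmp8* and *Lcn2* had changes in both directions, of -0.13, 0.07, -0.99, -0.75 and 0.76. None of these passed the limits (adjusted p = 0.299 to 0.938 by limma). The primary granule genes *Elane*, *Ctsg*, *Prtn3* and *Mpo* were higher in every *Hoxa9*/*IRX3* mouse. Their changes were 1.91, 1.03, 0.71 and 0.70, and only that of *Elane* passed both limits.

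The largest change on this scale was that of *S100a10* (ENSMUSG00000041959; chromosome 3, 93555080 to 93564643), also called p11, which carries no working calcium loops and joins annexin A2 in a complex that binds plasminogen and the membrane scaffold AHNAK. It was at 4.98, 4.33 and 5.45 RPKM in *Hoxa9*/MTV mice, or 344 to 504 reads, against 0.413, 0.384 and 1.51 RPKM in mice 3.2, 3.3 and 3.5, or 35, 36 and 115 reads. Every *Hoxa9*/*IRX3* mouse lay below every control, and mouse 3.5 was the highest of the low cohort. The means of 4.92 ± 0.561 and 0.768 ± 0.640 RPKM (SD, n = 3) differed 6.40-fold, with a log2 fold change of -2.20 (SE 0.32, limma adjusted p = 0.0182). When mouse 1.1, 1.2 or 1.4 was left out the adjusted p was 0.0835, 0.0859 and 0.0961, with changes of -2.19, -2.28 and -2.13. Across all tested genes, leaving out one of these controls lowered the number of calls from 298 to 76, 66 and 61.

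*S100a4* (ENSMUSG00000001020; chromosome 3, 90603771 to 90606045), known as metastasin and for binding non-muscle myosin IIA, had the same order of mice within the *Hoxa9*/*IRX3* cohort. It was at 3.38, 2.38 and 3.27 RPKM in *Hoxa9*/MTV mice, against 0.397, 0 and 1.54 RPKM in mice 3.2, 3.3 and 3.5. These values rest on 45 to 72 reads in the first cohort and on 8, 0 and 28 reads in the second, and 0 reads in mouse 3.3 allow up to 0.134 RPKM (3 reads, counting error only). Its change was larger than that of *S100a10* with a pseudocount of 0.1 (-2.83 and -2.76) and with voom on recovered reads (-3.72 and -2.99). The cohorts did not overlap, but the interval was wide: the log2 fold change was -1.84 (SE 0.48, 95% interval -2.99 to -0.69), and the adjusted p of 0.0775 by limma missed the limit. Without mouse 3.5 the change was -2.38 (adjusted p = 0.0173). Over the 6 mice *S100a4* and *S100a10* had a Pearson r of 0.96, in values that hold the difference between cohorts.

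*S100a6* (ENSMUSG00000001025; chromosome 3, 90612882 to 90624181), or calcyclin, the neighbor of *S100a4*, split the *Hoxa9*/*IRX3* cohort. It was at 10.8, 6.25 and 6.05 RPKM in *Hoxa9*/MTV mice, against 0.965, 1.14 and 43.2 RPKM in mice 3.2, 3.3 and 3.5, or 13, 17 and 524 reads. Mice 3.2 and 3.3 lay below every control and mouse 3.5 above every control, 41.0-fold over the mean of its cohort mates. The log2 fold change of -0.75 had an interval of -3.79 to 2.29 (adjusted p = 0.747 by limma). Without mouse 3.5 it was -2.36 (SE 0.27, adjusted p = 0.0151), and without mouse 3.2 or 3.3 it was 0.09 or 0.01.

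Without mouse 3.5, *S100a4* and *S100a6* thus joined *S100a10* past both limits, so that 3 of the 8 genes were called, all lower, against 2.03% of the genes tested in that fit that were lower. Mouse 3.5 was singled out after the values were seen. Leaving out mouse 1.1, 1.2 or 1.4 left 0 members past both limits, mouse 3.2 left 2 and mouse 3.3 left 1. For these 3 genes the mean of mice 3.2 and 3.3 was 15.2-fold, 7.31-fold and 12.3-fold below that of *Hoxa9*/MTV mice. The value of mouse 3.5 over the mean of mice 3.2 and 3.3 was between 1.10-fold for *S100a1* and 41.0-fold for *S100a6*, and it lay above both of them for every member but *S100a11*. Mouse 3.5 also had the fewest reads of the 6 libraries, the highest *Nkg7* (482 RPKM against 14.9 to 100 in the others) and the highest *Igll1* (38.4 RPKM). *Igll1* was raised in its cohort mates too, at 1.19 and 9.11 RPKM in mice 3.2 and 3.3, against 0.0312 to 0.102 RPKM in *Hoxa9*/MTV mice. The defining lymphoid markers *Cd3d*, *Trac*, *Ncr1*, *Ms4a1* and *Pax5* were listed at 0 in all 6 mice. Other genes of the B cell list were detected: *Vpreb1* was at 2.72 RPKM in mouse 3.5 and at no more than 0.376 RPKM elsewhere, and *Cd79b* at 6.11 to 7.07 RPKM in *Hoxa9*/MTV mice and 2.31 RPKM in mouse 3.5. No label sets this mouse apart from the other *Hoxa9*/*IRX3* mice.

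**Figure D2:**
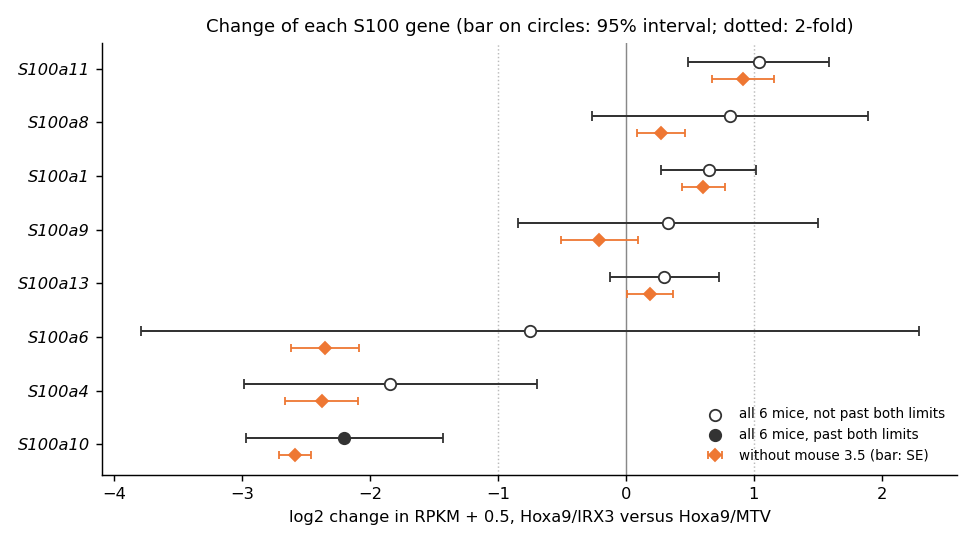
Log2 change of each S100 gene between *Hoxa9*/*IRX3* and *Hoxa9*/MTV mice on RPKM + 0.5 (circles, all 6 mice with 95% interval; filled where past both limits; diamonds, without mouse 3.5 with SE; dotted lines, 2-fold). *S100a10* is the only filled circle, and the diamonds of *S100a4*, *S100a6* and *S100a10* lie close together between -2.36 and -2.59.

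Some monocyte and macrophage markers were lower, as were *S100a4* and *S100a10*. Of 12 tested, 5 fell (*Ms4a6c*, *Cd68*, *Klf4*, *Ccr2* and *Ctss*) and 0 rose, beside 2.03% lower among all tested genes, and their summed RPKM was 392 to 443 in *Hoxa9*/MTV mice and 175, 262 and 166 in mice 3.2, 3.3 and 3.5. Mouse 3.5 had the lowest sum, while its *S100a4*, *S100a6* and *S100a10* were the highest of the *Hoxa9*/*IRX3* cohort. The part of these markers in the fall of *S100a10* was not tested. The other lists were set against that same 2.03%. Dendritic cell and MHC class II markers had 1 of 4 tested lower, and B cell markers 1 of 3 lower (*Cd79b*). The remaining tested B cell markers, *Igll1* and *Vpreb1*, were higher in every *Hoxa9*/*IRX3* mouse, and neither passed both limits. Mast cell and basophil markers had 2 of 4 lower, megakaryocyte markers 0 of 2 called and T and NK cell markers 0 of 1. None of 9 erythroid markers reached 0.5 RPKM. RNA of the gate genes *Kit* (1.63 to 3.12 RPKM), *Ptprc*, which encodes CD45 (1.53 to 2.09 RPKM), and *Ly6c2*, a Gr1 antigen (413 to 844 RPKM), was detected in all mice. The other Gr1 gene, *Ly6g*, was at 0.0532 to 0.146 RPKM in *Hoxa9*/MTV mice and 0.682 to 1.42 RPKM in *Hoxa9*/*IRX3* mice. Cells outside the gate were not measured, so these values cannot show how well the gate held.

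*S100a11* (ENSMUSG00000027907; chromosome 3, 93520488 to 93526287), a partner of annexin A1 in membrane repair and endosomal traffic, was higher, not lower, unlike its neighbor *S100a10*. It was at 7.84, 7.85 and 6.74 RPKM in *Hoxa9*/MTV mice, against 11.1, 19.01 and 18.8 RPKM in mice 3.2, 3.3 and 3.5. Every *Hoxa9*/*IRX3* mouse was above every control, with mouse 3.2 the nearest to them. The means of 7.47 ± 0.638 and 16.3 ± 4.55 RPKM (SD, n = 3) differed 2.18-fold, with a log2 fold change of 1.04 (SE 0.23, 95% interval 0.49 to 1.59). With an adjusted p of 0.0536 by limma it missed the limit, which it passed without mouse 3.2 (1.29, adjusted p = 0.0112). Mouse 3.5 was not apart here, at 1.25-fold the mean of its cohort mates.

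*S100a1* (ENSMUSG00000044080; chromosome 3, 90511034 to 90514392), best known from heart and skeletal muscle, where it tunes calcium release and uptake, was detected in all mice. It was at 6.43, 5.66 and 4.52 RPKM in *Hoxa9*/MTV mice, against 8.94, 8.29 and 9.44 RPKM in *Hoxa9*/*IRX3* mice. The cohorts did not overlap, and the spread of 6.48% of the mean within the *Hoxa9*/*IRX3* cohort was the smallest of the 8 genes there. The log2 fold change was 0.65 (95% interval 0.28 to 1.02, adjusted p = 0.0645 by limma). *S100a13* (ENSMUSG00000042312; chromosome 3, 90514435 to 90524581), which takes part in the release of FGF1 and interleukin-1 alpha without a signal peptide, starts beside it on the opposite strand. It was at 1.86, 1.60 and 1.62 RPKM in *Hoxa9*/MTV mice, against 1.58, 2.51 and 2.64 RPKM in mice 3.2, 3.3 and 3.5, where mouse 3.2 was below all controls. Its log2 fold change was 0.30 (95% interval -0.13 to 0.73, adjusted p = 0.340 by limma). Over the 6 mice *S100a13* had an r of 0.88 with *S100a11* and of 0.62 with the adjacent *S100a1*, given as a description.

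Per length, the levels of the calprotectin genes were above those of the other 6 in every mouse. RPKM of these files divide by a gene length that includes introns, and for *S100a4*, *S100a6* and *S100a8* the divisor found from the values (2276, 1521 and 964 bases) was not the span of the annotation used here, so levels between genes are given as recovered reads per kilobase of the spliced transcript, scaled to library size as RPKM are. On this scale *Hoxa9*/MTV cells had 734 ± 120 for *S100a8* and 708 ± 194 for *S100a9* (SD, n = 3), which did not differ beyond their spread. *S100a11* at 84.8 ± 7.23 and *S100a10* at 68.7 ± 7.84 came next. *S100a1* at 27.5 ± 4.76 and *S100a13* at 24.0 ± 2.05 overlapped, as did *S100a6* at 16.01 ± 5.56 and *S100a4* at 13.8 ± 2.50. In *Hoxa9*/*IRX3* cells the calprotectin pair stayed at the top, *S100a8* at 1495 ± 1057 and *S100a9* at 1024 ± 722, followed by *S100a11* at 185 ± 51.7. *S100a10* ranked below *S100a1* (10.7 ± 8.94 and 44.1 ± 2.86), and *S100a4* was last at 2.95 ± 3.66 and below *S100a10* in every mouse. The means of *S100a13* (31.9 ± 8.24) and *S100a6* (31.4 ± 50.6) lay between. By mouse, *S100a6* was at 2.01, 2.37 and 89.8 in mice 3.2, 3.3 and 3.5, against 22.4, 35.7 and 37.5 for *S100a13*. The aligner did not split reads at introns, so reads across exon junctions of these short genes may be missing from all levels on this scale.

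As a share of the reads of protein-coding genes, the 8 genes held 0.0849%, 0.108% and 0.0769% in *Hoxa9*/MTV mice and 0.101%, 0.0839% and 0.262% in mice 3.2, 3.3 and 3.5. The cohorts overlapped, and the mean of 0.0899% ± 0.0161 compared with 0.149% ± 0.0983 (SD, n = 3). *S100a8* and *S100a9* together made up 79.0% to 90.0% of these reads in every mouse.

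**Figure D3:**
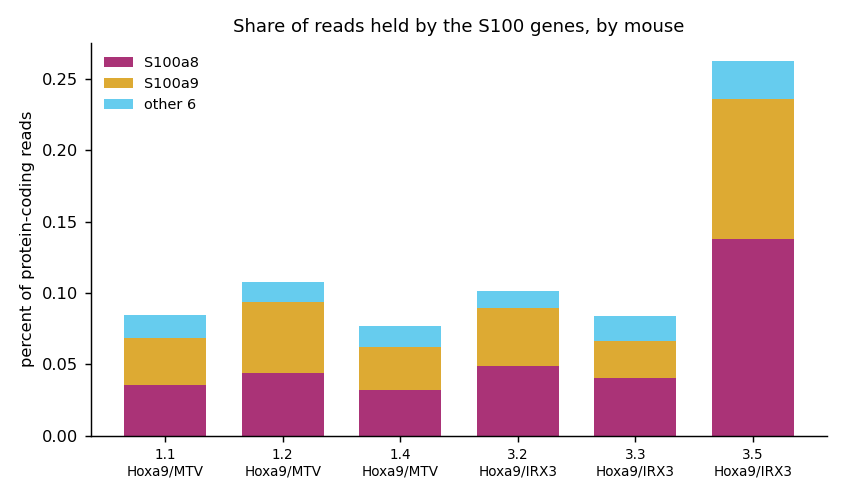
Percent of the reads of protein-coding genes that fell on *S100a8*, *S100a9* and the other 6 S100 genes in each mouse (stacked bars from 0). The bar of mouse 3.5 reaches 0.262% and those of the other 5 mice 0.0769% to 0.108%.

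The rest of the family was at or near 0. Of 9 further S100 genes in the table, *S100a7a*, *S100a16*, *S100b*, *S100g* and *S100z* had no read in any mouse, and *S100a2*, *S100a3*, *S100a5* and *S100a14* reached at most 0.115 RPKM, so none entered the test. *S100pbp*, which encodes a nuclear protein that binds S100P, was at 0.993 to 1.27 RPKM in *Hoxa9*/MTV mice, against 0.482, 0.760 and 0.544 RPKM in mice 3.2, 3.3 and 3.5. Its change was -0.58 (adjusted p = 0.0665 by limma).

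Genes whose products work with S100 proteins were read in 4 lists of 49 genes, 39 of them tested. Of these, 3 fell (*Ager*, *Ahnak* and *Anxa1*) and 0 rose, beside 2.03% lower and 1.10% higher among all tested genes, with a median change of 0.05, beside -0.06 for all tested genes. Among receptors of S100A8/A9, 1 of 5 tested genes fell. *Ager*, which encodes RAGE, was at 1.62, 2.58 and 2.25 RPKM in *Hoxa9*/MTV mice, against 0.551, 0.166 and 0.204 RPKM in *Hoxa9*/*IRX3* mice, and had a change of -1.73 (SE 0.23, adjusted p = 0.0137 by limma). Of the abundant receptor genes, basigin (*Bsg*) had a change of 0.25 (adjusted p = 0.430) and the adaptor *Myd88* one of 0.17 (adjusted p = 0.653). *Tlr4*, named after its values were seen, was at 0.284 to 0.522 RPKM in *Hoxa9*/MTV mice, against 2.50, 0.839 and 1.29 RPKM in mice 3.2, 3.3 and 3.5. It was higher in every *Hoxa9*/*IRX3* mouse, with a change of 1.10 (95% interval 0.39 to 1.81) whose adjusted p of 0.0832 missed the limit, and it passed both limits without mouse 3.3 (1.36, adjusted p = 0.0399). Its co-receptor gene *Ly96* reached at most 0.0629 RPKM in all mice.

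Among intracellular partners, 2 of 10 tested genes fell and 0 rose, beside 2.03% lower and 1.10% higher among all tested genes. *Ahnak*, whose giant protein is held at the membrane by the S100A10-annexin A2 complex, was at 3.90, 2.04 and 2.59 RPKM in *Hoxa9*/MTV mice, against 0.484, 0.563 and 0.126 RPKM in mice 3.2, 3.3 and 3.5, a change of -1.91 (SE 0.28, adjusted p = 0.0175 by limma). Mouse 3.5 was the lowest for *Ahnak* and the highest of its cohort for *S100a10*. *Anxa2*, the direct partner of S100A10, named after its values were seen, was at 1.16 to 1.28 RPKM and 0.930 to 1.42 RPKM, with a change of -0.01 (95% interval -0.35 to 0.33, adjusted p = 0.963). *Anxa1*, the partner of S100A11, went against it: at 7.41, 6.68 and 11.1 RPKM in *Hoxa9*/MTV mice and 1.21, 2.12 and 3.56 RPKM in *Hoxa9*/*IRX3* mice, it changed by -1.73 (SE 0.34, adjusted p = 0.0391 by limma). *Cacybp*, which binds S100A6, had a change of 0.19 (adjusted p = 0.559), and *Cybb*, the oxidase subunit that S100A8/A9 helps to activate, one of -0.33 (adjusted p = 0.300). In fits that each omitted 1 mouse, the adjusted p ran from 0.00849 to 0.0835 for *Ager*, from 0.0224 to 0.0859 for *Ahnak* and from 0.0257 to 0.152 for *Anxa1*. The calls were lost without mouse 1.2 or 1.4 for *Ager*, without any of the 3 controls for *Ahnak*, and without a control or mouse 3.3 for *Anxa1*. The cargo genes of S100A13 export were at or near 0, with *Il1a* listed at 0 in all mice and *Fgf1* at no more than 0.00748 RPKM.

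**Figure D4:**
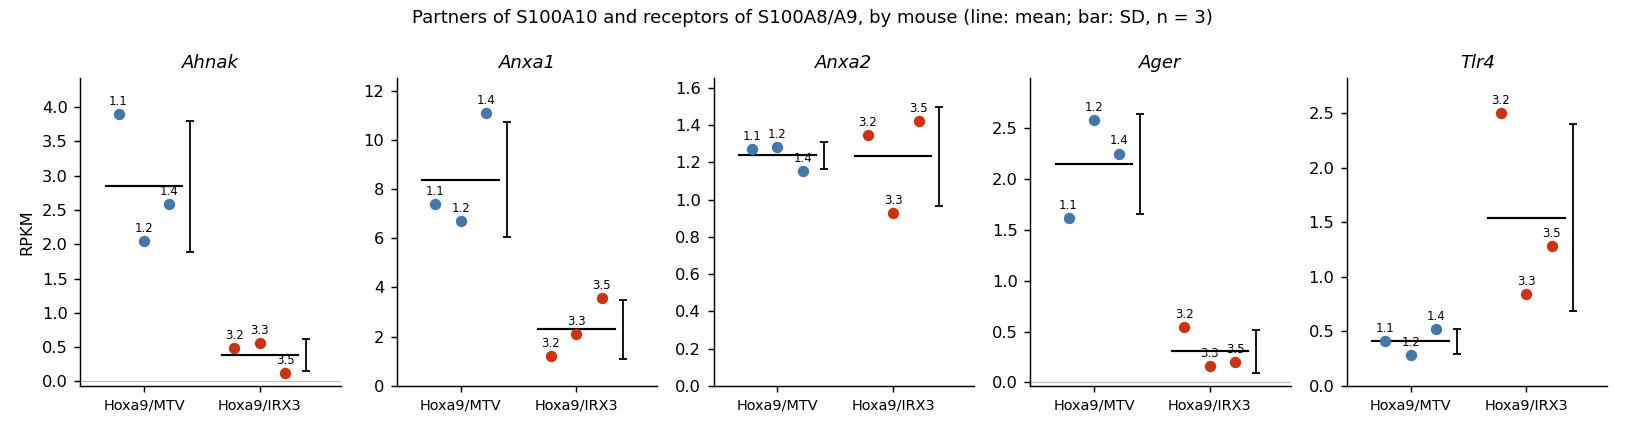
RPKM in each mouse (y axis, linear, scaled per gene) of *Ahnak*, *Anxa1*, *Anxa2*, *Ager* and *Tlr4* (blue, *Hoxa9*/MTV; red, *Hoxa9*/*IRX3*; line, mean; side bar, SD, n = 3). *Ahnak*, *Anxa1* and *Ager* are lower in every *Hoxa9*/*IRX3* mouse, *Tlr4* is higher in each, and the cohorts overlap for *Anxa2*.

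Transcription factors known to drive S100A8 and S100A9 numbered 7, all tested, and 0 were called, beside 3.13% of all tested genes. *Cebpe*, needed for late granulocyte maturation, was at 28.4 to 32.5 RPKM in *Hoxa9*/MTV mice, against 59.5, 17.4 and 109 RPKM in mice 3.2, 3.3 and 3.5, with a change of 0.70 (95% interval -0.77 to 2.16, adjusted p = 0.514), and of 1.43 without mouse 3.3 (adjusted p = 0.0434). Its order within the *Hoxa9*/*IRX3* cohort, with mouse 3.5 highest and mouse 3.3 lowest, was that of *S100a8* and *S100a9*. *Spi1*, which encodes PU.1, had a change of -0.58 (95% interval -1.39 to 0.24, adjusted p = 0.344). *Hif1a*, named after its values were seen, was higher in every *Hoxa9*/*IRX3* mouse, from 1.99 to 2.83 up to 3.88 to 4.71 RPKM, a change of 0.80 (adjusted p = 0.0360) under 2-fold, and its adjusted p was 0.0326 to 0.152 without each mouse. Of 17 tested EF-hand genes outside the family, 0 were called, beside that same 3.13%. The 2 most changed abundant ones were *Calu* (0.77, adjusted p = 0.0694 by limma) and the calmodulin gene *Calm3* (0.52, adjusted p = 0.0971).

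No tested neighbor of these genes passed both limits, which 3.13% of all tested genes did. Within 250 kb of a member lie 24 other protein-coding genes, of which 10 were tested. Their changes ran from -0.33 (*Crtc2*) to 1.60 (*Tchh*), with a median of 0.11. The cohorts did not overlap for 6 of the 10, against 33.7% of all tested genes. *Snapin*, 20000 bases from *S100a1*, was the one neighbor with an adjusted p under 0.05, at 24.4, 22.2 and 23.5 RPKM in *Hoxa9*/MTV mice and 44.2, 45.4 and 45.5 RPKM in *Hoxa9*/*IRX3* mice (0.94, adjusted p = 0.0137 by limma, short of 2-fold, and 0.0711 to 0.0857 without one of the controls). *Tchh*, a gene of hair follicle and epidermis 71410 bases from *S100a11*, was at 0.0153 to 0.117 RPKM in *Hoxa9*/MTV mice, against 3.19, 0.227 and 1.32 RPKM in mice 3.2, 3.3 and 3.5 (adjusted p = 0.139, and 0.0210 without mouse 3.3, where the change was 2.21). Both were named after their values were seen. Between *S100a11* and *S100a10*, 28.8 kb apart, the changes had opposite signs.

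**Figure D5:**
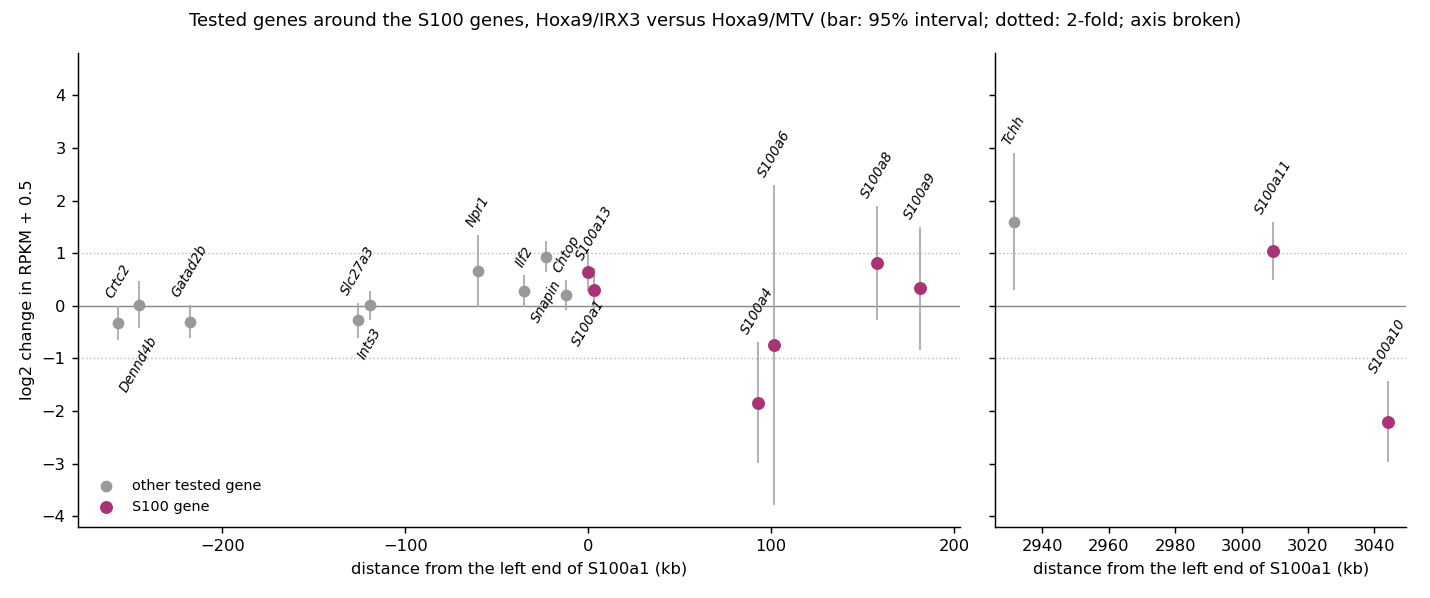
Log2 change on RPKM + 0.5 (y axis; bars, 95% interval; dotted lines, 2-fold) of the tested genes within 250 kb of an S100 gene, by distance from the left end of *S100a1* in kb (x axis broken between the panels, which differ in scale). *S100a4* and *S100a10* lie below their tested neighbors, and *S100a11* at 1.04 lies between *Tchh* at 1.60 and *S100a10* at -2.20.

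The genes whose values over the 6 mice were most like those of each member were sought among 2538 tested genes with a mean over all mice of 5 RPKM or more, by Pearson r on log2(RPKM + 0.5). As the top 2 of so many genes over 6 points, they have a high r by selection, and no r was tested. The 6 points share 2 cohorts, so that genes that differ between cohorts in the same direction tend to a high r and those in opposite directions to a low one. For *S100a10* these were *Wasf2* (r = 0.996) and *Ikzf1* (0.990), and for *S100a4* they were *Elf4* (0.992) and *S1pr4* (0.985). *Wasf2* was at 6.88 to 6.97 RPKM in *Hoxa9*/MTV mice, against 4.09, 4.07 and 5.33 RPKM in mice 3.2, 3.3 and 3.5, with the order of *S100a10* in the second cohort in a much smaller range. *S100a8* was nearest to *Glrx* (0.985) and *Zdhhc3* (0.982), and *S100a9* to *Sfn* (0.980) and *Pmpca* (0.971), each of which was highest in mouse 3.5. The same held for *Tmem66* (0.981) and *Tm9sf3* (0.977), nearest to *S100a6*. *S100a11* was nearest to *Atg12* (0.987) and *Asf1b* (0.984), and *S100a1* to *Sypl* (0.983) and *Uchl4* (0.980), while *Sec62* (0.979) was among the genes nearest to *S100a13*.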

How the data were processed

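RNA of sorted KIT+Gr1+ leukemia cells from 6 mice was analyzed, 3 per cohort, with cohorts taken from the sample labels. From strand-specific polyA libraries read as pairs of 75 bases, the authors aligned to GRCm38 (Bowtie2 2.2.1), kept primary alignments with a Phred quality of at least 20 (SAMtools 0.1.19), counted on Ensembl 76 genes and deposited RPKM. Whether counting used strand is not given in the sources used here.

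Library sizes were recovered from steps between low RPKM. Sums over genes came to 104% to 105% of them, since some reads lie on more than 1 gene. With GENCODE M21 spans, 68.9% of 14755 detected protein-coding genes had whole reads in all mice (within 0.01); members' reads were whole (within 0.02) at the divisor found for each. GENCODE M21 matched 40254 of 41128 genes. Promoter sequences are from RefSeq.

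Genes were tested with limma 3.58.1 in R 4.3.3 (lmFit, eBayes with trend) with Benjamini-Hochberg adjustment, using a script tested on simulated data. Python 3.11.15 with pandas 2.3.3, numpy 2.4.6, scipy 1.17.1 and matplotlib 3.10.9 did the rest. Alternatives were 2 other pseudocounts (0.1 and 1), 3 other filters, all gene types, median-of-ratios and quantile scaling, no variance trend, sample weights, the criterion of the study, voom on recovered reads, exon length, and leaving out each mouse.

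The members, lists, tests and naming rule were chosen with earlier results of these data known, and the motifs were chosen after the files had been read. Named were the members, all other S100 symbols, listed genes past both limits and otherwise the 2 of each list most changed with a mean of at least 5 RPKM, neighbors past both limits, and the 2 genes most like each member. Others are marked as named after their values were seen, apart from markers and gate genes. Some genes that the rule names are not reported here.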

Additional observations from a re-analysis of the deposited data

How the results depend on the processing

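Each member's change was recomputed under 19 settings. Of 152 values, 137 kept their direction and their side of both limits, 8 came to pass them, 3 no longer did and 4 turned. *S100a10* was lower in all settings, and it lost its call without mouse 1.1, 1.2 or 1.4. Without each mouse, *S100a9* ran from -0.21 (without mouse 3.5) to 0.77 and *S100a6* from -2.36 (without mouse 3.5) to 0.094 (without mouse 3.2). *S100a6* turned to 0.97 under the criterion of the study, the log2 ratio of mean RPKM, and to 0.01 without mouse 3.3. The cause of these turns was not tested. The number of members past both limits rose from 1 to 3 with sample weights and under the criterion of the study (*S100a4* and *S100a11* in addition to *S100a10*) and to 2 with exon length (*S100a11*), and ran from 0 to 3 when each mouse was left out. Over all tested genes the 298 calls became 175 with no filter on low values, 664 under the criterion of the study and 552 with exon length, and ran from 61 to 415 when each mouse was left out. The calls were 193 lower and 105 higher, and 166 lower and 153 higher with voom on recovered reads. Genes of the partner lists past both limits ran from 0 to 4 without each mouse, and neighbors past both limits, 0 in all, were 1 (*Snapin*) with median-of-ratios scaling and with voom, and 0 to 1 without each mouse (*Tchh*, without mouse 3.3). The cause was not tested. Depth limits *S100a4* and *S100a6* most, with as few as 0 and 13 reads. Intervals rest on 3 mice per cohort. No paired analysis was possible because the mouse numbers differ between the cohorts.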
